A study of Mus musculus with 28 samples.

Results

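The 8 genes described here, Nkx2-1, Nkx2-2, Nkx2-3, Nkx2-5, Nkx2-6, Nkx3-2, Nkx6-1 and Nkx6-2, belong to the Nkx homeobox family. They were taken by name, with earlier results on these lists known. They are 8 of the 14 protein-coding Nkx genes annotated and of 21887 protein-coding genes in all. Every summit inside them or within 10 kb of either annotated end was read from each of 11 summit lists. A summit is the single position, in mm10, where a peak of sequenced fragments was highest. All cells were male neural stem cells from E14.5 brain of the strain C57BL/6 x FVB/N. Wild-type cells were compared with cells homozygous for MommeD1, the null allele of Smchd1 (Smchd1MommeD1/MommeD1). Chromatin immunoprecipitation (ChIP) of Smchd1, H3K4me3 and H3K27me3 had 2 libraries per genotype, and methylated DNA pulled down with the MBD2 methyl-CpG binding domain (MBD) had 3. The cells grew in culture with EGF and bFGF. Ctcf ChIP had 2 libraries of wild-type cells left untransduced, 2 of wild-type cells transduced with a short hairpin RNA (shRNA) that is non-silencing and 2 of null cells. A further 2, from wild-type cells with the hairpins Ctcf.6 or Ctcf.7, served only as the control for Ctcf peaks. They are labelled Ctcf null, although a hairpin lowers a transcript and does not delete its gene. Below and in the figures, Ctcf null instead means Ctcf ChIP in the Smchd1 null cells. Null Smchd1 ChIP was likewise only the control for the Smchd1 lists, and histone and MBD lists had 1 whole cell extract per genotype.

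The libraries of a group were pooled into 1 list, so values below carry no replicate error and genotypes are compared without a test. The lists held 732 wild-type and 77 null H3K27me3 summits, 23449 and 24201 for H3K4me3, 407 and 1105 for Smchd1 at thresholds of 5e-4 and 5e-3, 8292 untransduced, 20483 non-silencing and 11920 null Ctcf summits, and 156188 and 126631 MBD summits in lists whose names say wild type and null. The samples' labels assign those MBD lists to the opposite genotypes, so they are called by their names alone. Read numbers are not in the lists and the depth is unknown. A score, the authors' −log10 p or q value, ranks summits within its own list only. All 12 neural stem cell markers listed, among them Sox2, Nes and Vim, had H3K4me3 within 10 kb in both genotypes and H3K27me3 in neither. H3K4me3 lay near 6 of 8 neuronal markers in both, 5 wild-type and 4 null of 7 blood markers, 2 of 7 mesenchyme and heart markers in both, and 0 wild-type and 1 null of 7 endoderm markers. Of all protein-coding genes, 67.1% had H3K4me3 in wild type and 66.8% in null, so the neuronal and blood counts were near the share of any genes. H3K27me3 lay near 1.24% and 0.32% of all genes, so its absence from 12 markers says little.

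Nkx proteins are DNA-binding transcription factors that set the identity of cells along body axes and in organs. In the ventral neural tube, Sonic hedgehog signalling turns on Nkx2-2, Nkx6-1 and Nkx6-2, and these repress more dorsal fates, so that each progenitor domain makes its own neurons. Nkx2-1 specifies ventral forebrain, thyroid and lung, Nkx2-5 the heart, Nkx2-6 pharyngeal endoderm, Nkx2-3 spleen and gut, and Nkx3-2 (Bapx1) the axial skeleton. In cells where they are off, genes of this kind are typical targets of Polycomb, which deposits H3K27me3, whereas H3K4me3 marks active or poised promoters.

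The promoter windows of 4 genes are shown because they belong to genes with 4 different combinations of marks: H3K4me3 without H3K27me3 (Nkx2-2), both in wild-type cells (Nkx6-2), H3K27me3 alone (Nkx2-5) and H3K27me3 with Smchd1 (Nkx6-1). Each is 300 bases from RefSeq on GRCm38.p6 (the assembly of mm10), 250 before and 50 after the transcription start, 5′ to 3′ on the minus strand. The annotated genes Nkx2-2 and Nkx2-5 extend further upstream of this start. Capitals mark CpG, the dinucleotide whose methylated form MBD2 binds.
Nkx2-2, chr2:147186353-147186652: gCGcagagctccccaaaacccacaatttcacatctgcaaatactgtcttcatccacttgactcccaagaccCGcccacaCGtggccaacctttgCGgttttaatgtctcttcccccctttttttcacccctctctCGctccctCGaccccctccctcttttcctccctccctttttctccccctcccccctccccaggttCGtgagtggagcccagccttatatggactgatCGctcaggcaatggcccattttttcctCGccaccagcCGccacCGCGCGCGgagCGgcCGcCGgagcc
Nkx6-2, chr7:139582748-139583047: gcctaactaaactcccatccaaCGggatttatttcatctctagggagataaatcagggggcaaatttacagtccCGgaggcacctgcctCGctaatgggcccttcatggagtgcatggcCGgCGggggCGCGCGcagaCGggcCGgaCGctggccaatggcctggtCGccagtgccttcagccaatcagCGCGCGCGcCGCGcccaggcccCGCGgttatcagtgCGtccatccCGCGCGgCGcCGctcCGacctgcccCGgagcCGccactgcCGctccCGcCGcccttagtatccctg
Nkx2-5, chr17:26841516-26841815: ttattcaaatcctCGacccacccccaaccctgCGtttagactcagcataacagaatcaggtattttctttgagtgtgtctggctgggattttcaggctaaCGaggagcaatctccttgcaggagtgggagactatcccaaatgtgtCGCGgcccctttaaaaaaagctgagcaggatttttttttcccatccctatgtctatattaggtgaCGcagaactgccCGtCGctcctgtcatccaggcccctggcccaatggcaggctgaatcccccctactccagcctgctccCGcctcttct
Nkx6-1, chr5:101664662-101664961: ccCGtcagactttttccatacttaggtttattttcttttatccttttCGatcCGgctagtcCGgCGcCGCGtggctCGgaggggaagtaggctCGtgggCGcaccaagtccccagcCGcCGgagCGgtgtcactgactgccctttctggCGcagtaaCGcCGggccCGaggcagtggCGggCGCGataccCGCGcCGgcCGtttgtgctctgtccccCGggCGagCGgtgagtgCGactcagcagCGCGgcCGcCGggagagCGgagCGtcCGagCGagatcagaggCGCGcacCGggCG

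CpG numbers differed widely within the family. The window of Nkx6-1 held 40 CpG, more than 95.2% of the 17492 protein-coding genes with a window. Nkx6-2 followed with 32, Nkx3-2 with 25, Nkx2-2 with 17, Nkx2-3 with 15, Nkx2-1 with 12 and Nkx2-5 with 9, against a median of 13 over all genes. G and C made up from 51.7% (Nkx2-5) to 67.3% (Nkx6-1) of the bases. Windows were found for 7 of the 8, all but Nkx2-6. Of all 11 lists, only those of Smchd1 placed a summit inside any of these windows, at base 108 of the Nkx6-1 window counted from its 5′ end. Within the family, CpG number did not follow H3K27me3 in a simple way. The CpG-poor Nkx2-5 window and the CpG-rich Nkx6-1 window belonged to genes with 3 wild-type H3K27me3 summits each. Over all genes with a window, the 188 with wild-type H3K27me3 within 10 kb had a median of 18 CpG. The median was 20 for those with wild-type H3K4me3.

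**Figure D1:**
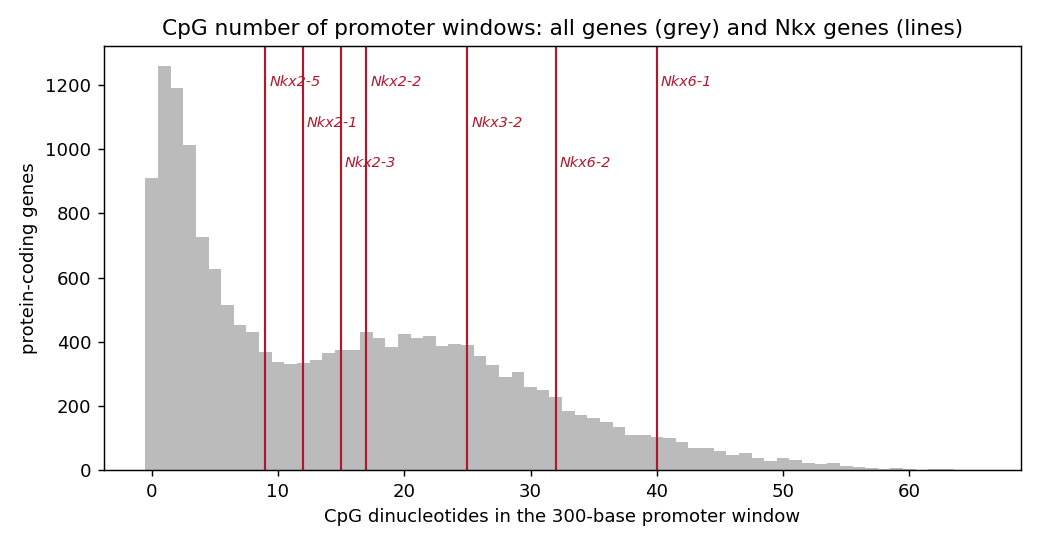
Number of CpG dinucleotides in the 300-base promoter window (x axis) against the number of protein-coding genes (y axis, grey bars), with a red line for each of the 7 Nkx genes that have a window. Nkx2-5 with 9 lies below the median of 13 and Nkx6-1 with 40 in the upper tail.

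H3K27me3 marked most of these genes in the wild-type list and nearly none in the null list. In wild-type cells 6 of the 8 had a summit, where 1.24% of all protein-coding genes did, and in null cells 1 of 8, where 0.32% did. All 6 were listed in wild type only (0.932% of all genes), and Nkx2-6 in null only (0.0137%, or 3 genes, the others being Hoxb13 and Tbx3). None of the 8 was in both, as were 67 genes (0.306%) of the 271 with a wild-type summit. The family was assembled with earlier results on these lists known, so these shares are descriptions. The cells were measured in bulk, so that a mark in fewer cells and a weaker mark in every cell cannot be told apart. The wild-type list is also 732 summits long against 77. Among its 77 highest-scoring summits only Nkx2-3 and Nkx3-2 had one, and Nkx6-1 was added when all 154 summits tied at or above that score of 5.60 were kept. Counting scores of at least 5 left 3 genes in wild type and 0 in null.

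Nkx2-3, needed for spleen and gut vasculature, carried the broadest H3K27me3 of the family. It had 8 wild-type summits, a number that only 23 protein-coding genes reached, spread from 9786 bp upstream of its start to 7094 bp downstream. Their scores ran from 4.16 to 7.73, and the highest, 38 bp beyond the gene's end at 19:43615930, exceeded 99.2% of the list. The nearest null summit was 1130630 bp away. The gene lies at chromosome 19, 43612325 to 43615892.

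The skeletal gene Nkx3-2 (chromosome 5, 41761483 to 41764220) had 2 wild-type H3K27me3 summits. The higher, 1630 bp upstream of the start, scored 6.75, above 97.5% of the list, while the other, 9720 bp downstream, scored 3.49. Nkx6-1, which specifies motor neuron progenitors and pancreatic beta cells (chromosome 5, 101659184 to 101664711), had 3, with 5.60 at 898 bp upstream, 4.51 at 2163 bp upstream and 4.51 inside the gene at 4428 bp downstream. The cardiac gene Nkx2-5 (chromosome 17, 26838664 to 26844988) also had 3, scored 4.51, 4.51 and 4.08, of which 1 lay inside the gene. At all 3 genes summits lay on both sides of the transcription start.

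Nkx2-1 and Nkx6-2 had a single wild-type summit each. At Nkx2-1 (chromosome 12, 56531935 to 56536908) it lay inside the gene, 550 bp downstream of the start, with a score of 4.51. At Nkx6-2 (chromosome 7, 139579376 to 139582797), a ventral progenitor and oligodendrocyte factor, it lay 515 bp upstream with a score of 4.50, within the long noncoding RNA gene Gm33031. Such scores are ordinary for the list: 4.51 was its commonest value, shared by 252 summits (34.4%) and by 8 of the 18 at the Nkx genes.

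Nkx2-2 and Nkx2-6 had no wild-type H3K27me3 summit. The nearest to Nkx2-2 (chromosome 2, 147176485 to 147195434) was 166749 bp away. Nkx2-6 (chromosome 14, 69171802 to 69175540) had instead the only null summit of the family, inside the gene at 14:69173998, with a score of 4.81 that exceeded 70.1% of the null list. Its nearest wild-type summit was 1934488 bp away.

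**Figure D2:**
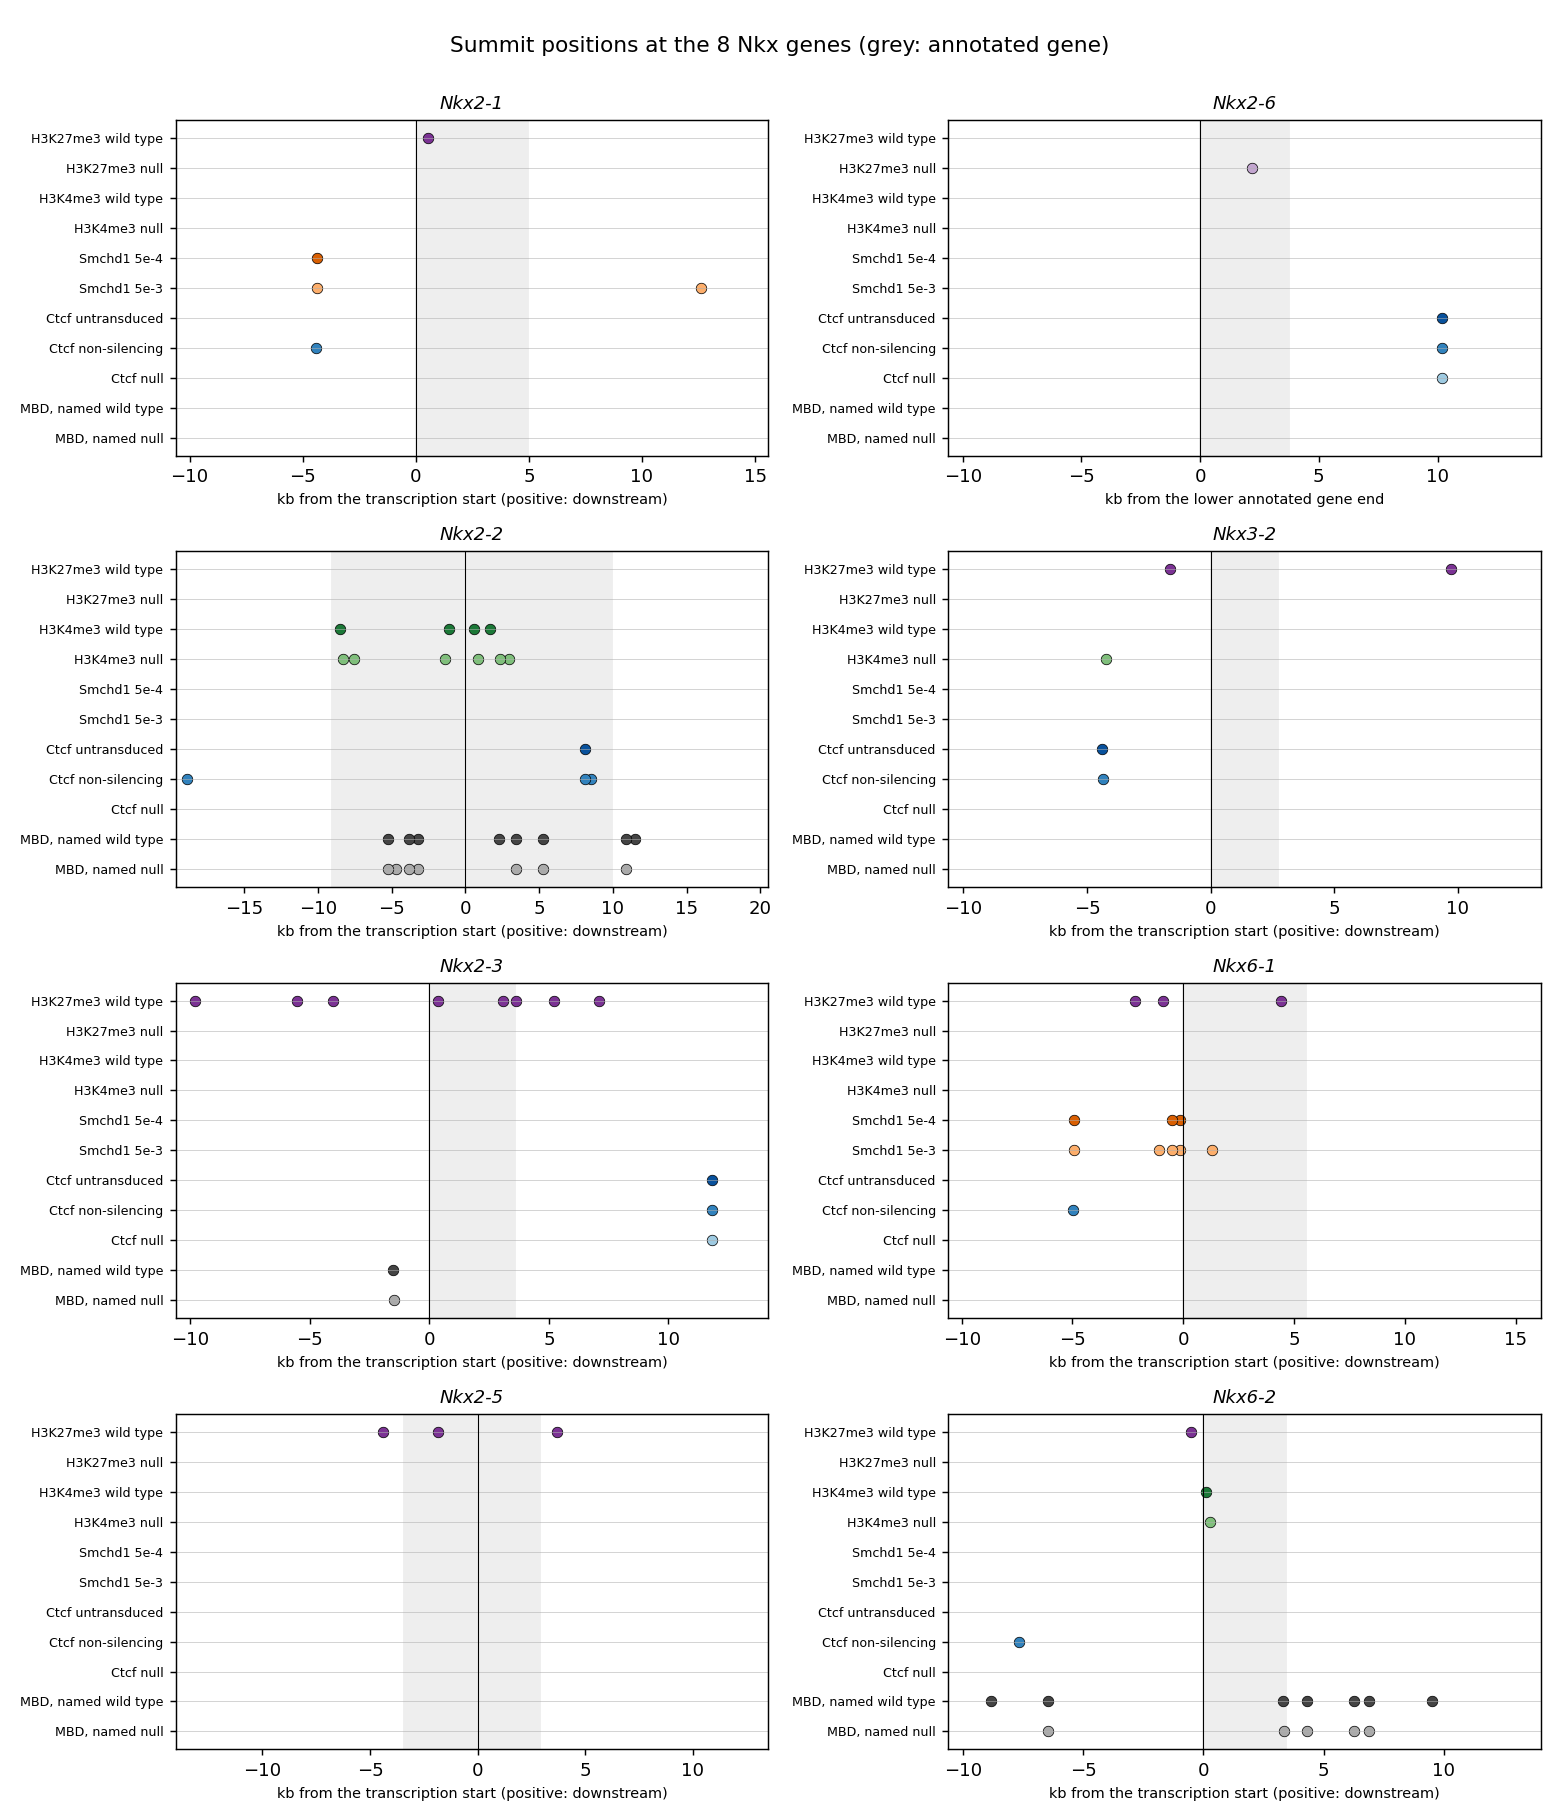
Position of every summit (points, coloured by list on the y axis) within 10 kb of each of the 8 Nkx genes, in kb from the transcription start and in the direction of transcription, or for Nkx2-6 in kb from the lower annotated gene end. Grey shading is the annotated gene, and the 8 wild-type H3K27me3 summits of Nkx2-3 spread over most of its window.

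**Figure D3:**
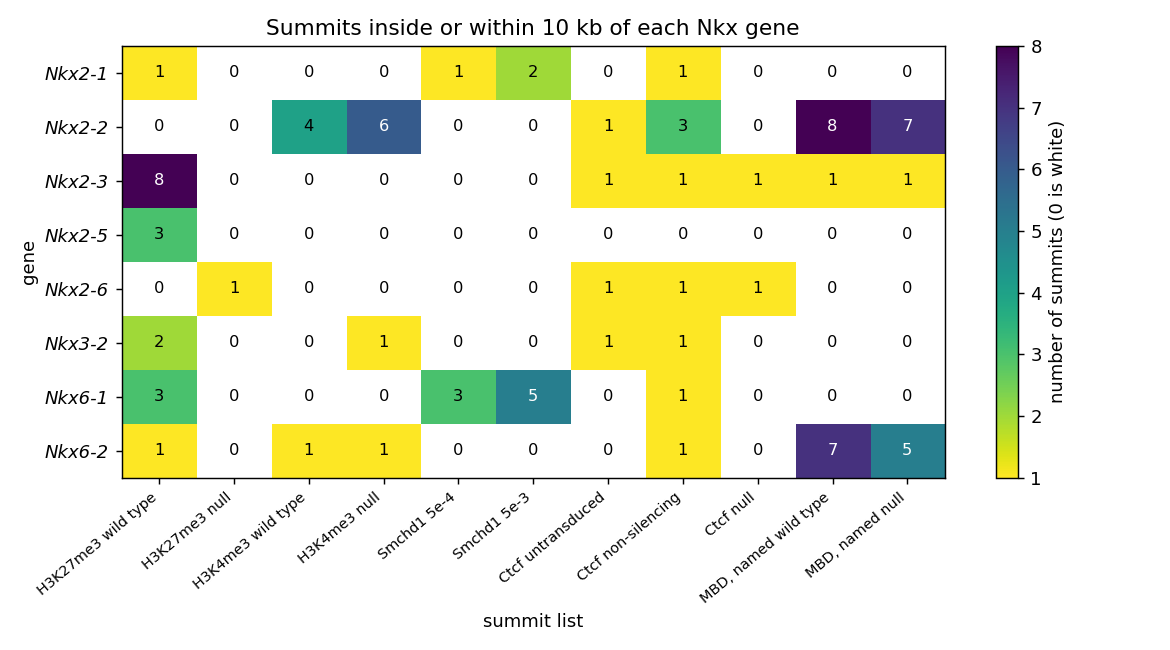
Number of summits (cell value and colour) inside or within 10 kb of each Nkx gene (y axis) in each of the 11 lists (x axis). Nkx2-3 holds 8 of the 18 wild-type H3K27me3 summits, and Nkx2-2 holds 4 of 5 wild-type and 6 of 8 null H3K4me3 summits.

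H3K4me3 was rare at these genes in both genotypes. Only Nkx2-2 and Nkx6-2 had it in wild-type cells, where 67.1% of all protein-coding genes did, and these and Nkx3-2 in null cells, where 66.8% did. Listed in wild type only were 0 of the 8 (1.27% of all genes) and in null only 1 (0.978%), Nkx3-2. Nkx6-2 alone had both H3K27me3 and H3K4me3 in wild-type cells (0.754% of all genes), while the other 5 with H3K27me3 lacked H3K4me3 (0.484%).

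Nkx2-2, which specifies the most ventral interneuron progenitors and later oligodendrocytes, held most of the family's H3K4me3. Its 4 wild-type summits scored 31.4 at 1660 bp downstream of the start, 37.8 at 599 bp downstream, 11.8 at 1095 bp upstream and 17.4 at 8522 bp upstream, near the far annotated end. The 6 null summits scored 24.2 at 2324 bp downstream, 36.3 at 874 bp downstream, 6.76 at 1376 bp upstream and 27.02 at 8331 bp upstream, with further ones of 4.17 and 14.7. The highest summits of the lists lay 275 bp apart, and every wild-type summit had a null one within 664 bp. The region near the start also holds the antisense gene Nkx2-2os, and these data cannot assign a mark to either gene. The top wild-type summit scored above 68.6% of its list and the top null summit above 66.4%. The lowest, 11.8 in wild type and 4.17 in null, scored above 26.6% and 1.84%.

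At Nkx6-2 a single H3K4me3 summit lay just inside the gene in each genotype, at 131 bp downstream of the start with a score of 9.19 in wild type and at 294 bp with 4.99 in null. These are low values, above 19.5% and 4.1% of their lists. The wild-type H3K27me3 summit lay 646 bp from the wild-type H3K4me3 summit. At Nkx3-2 the null list alone had a summit, 4221 bp upstream of the start (5:41768441, score 11.2, above 25.7% of the list). The nearest wild-type H3K4me3 summit was 52834 bp from the gene. The remaining 5 genes had H3K4me3 in neither list, with nearest wild-type summits 15224 bp from Nkx2-6, 40310 bp from Nkx2-5, 41020 bp from Nkx2-3, 100254 bp from Nkx6-1 and 144620 bp from Nkx2-1.

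Smchd1, a noncanonical member of the SMC (structural maintenance of chromosomes) family that helps keep genes silent, was listed at Nkx6-1 and Nkx2-1 in wild-type cells. These are 2 of 8, both at the threshold of 5e-4 (1.11% of all protein-coding genes) and at 5e-3 (3.07%). At Nkx6-1 the 5e-4 list held 3 summits, a number reached by 32 protein-coding genes. The highest scored 10.9 at 4925 bp upstream of the start, above 87% of the list. The others scored 4.94 at 510 bp and 4.15 at 143 bp upstream, the last inside the printed promoter window. These ranked low, above only 24.1% and 8.6% of the list. The 5e-3 list added 3.67 at 1074 bp upstream and 2.55 at 1298 bp downstream, which made a run of 4 summits across the start. The wild-type H3K27me3 summit of 5.60 lay 388 bp from the nearest of the 5e-4 summits.

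At Nkx2-1 the 5e-4 list held 1 summit, 4381 bp upstream of the start at 12:56541289, inside the noncoding gene Gm26973. Its score of 5.31 exceeded only 29% of the list. The 5e-3 list added 1 of 3.02, 12597 bp downstream of the start. The upstream summits of both genes lay beside Ctcf of the non-silencing list, 36 bp apart at Nkx2-1 and 38 bp apart at Nkx6-1. Of the 4 summits of the 5e-4 list at these genes, 2 thus had wild-type Ctcf within 1 kb. The pair near the Nkx6-1 start lay over 4 kb from it (4453 and 4820 bp). The share of all Smchd1 summits with Ctcf within 1 kb was not computed, so this count is a description only. Neither site had Ctcf nearby in the untransduced list (96157 and 224339 bp away) or the null list (95703 and 43621 bp). The other 6 Nkx genes had no Smchd1 summit at either threshold, and the nearest of the 5e-3 list was 80179 bp from Nkx3-2 and 4021015 bp from Nkx2-5.

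Ctcf, which binds insulators and anchors chromatin loops, was listed at 4 of the 8 genes in untransduced wild-type cells (29.5% of all protein-coding genes), at 7 in non-silencing wild-type cells (50.6%) and at 2 in null cells (37.2%). Listed in untransduced and not in null cells were 2 (6.3%), Nkx2-2 and Nkx3-2, both of which were also in the non-silencing list (5.33%). Listed in null and not in untransduced cells were 0 (14%). The 2 wild-type lists differed from each other by 3 genes, since Nkx2-1, Nkx6-1 and Nkx6-2 were in the non-silencing list but not the untransduced one (22.6%). The hairpin vector and the length of the list go with that difference, and their part in it was not tested.

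The Ctcf sites at Nkx2-2 and Nkx3-2 ranked high in the untransduced list but lower in the non-silencing list. At Nkx3-2 the untransduced summit lay 4379 bp upstream of the start with a score of 15.8, above 92.1% of its list. The non-silencing summit lay 12 bp away with 13.3, above 72.1% of its list. The nearest null Ctcf summit was 716452 bp off. The null list is longer than the untransduced list, the depth of both is unknown, and the part of either in this absence was not tested. The same place carried the H3K4me3 summit found in null cells only, 158 bp from the untransduced Ctcf summit. At Nkx2-2 the untransduced summit lay inside the gene, 8127 bp downstream of the start, with a score of 14.8 (above 89.4%). The non-silencing list had one 29 bp away (9.23, above only 40.4% of that list) and another 360 bp away (7.73). It also had a weak summit of 4.69 near the window's edge. The nearest null summit was 129667 bp from the untransduced site.

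At Nkx2-3 and Nkx2-6 the same Ctcf site was listed in all 3 cultures. At Nkx2-3 it lay 8244 to 8269 bp beyond the gene's end, with scores of 11.3 in untransduced, 20.3 in non-silencing and 11.7 in null cells and positions within 25 bp. At Nkx2-6 it lay 6436 to 6455 bp from the gene, with 5.69, 9.79 and 6.40 and positions within 19 bp. The null summit at Nkx2-6 was not among the 8292 highest of the null list, the length of the untransduced list, so that at equal lengths only Nkx2-3 kept null Ctcf and 3 genes were listed in untransduced and not in null cells. The sites listed with the non-silencing hairpin alone scored 8.82 at Nkx2-1, 8.29 at Nkx6-1 and 12.6 at Nkx6-2, the last 7661 bp upstream of the start. Nkx2-5 had Ctcf in none of the lists, and its nearest summit was 40129 bp away.

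**Figure D4:**
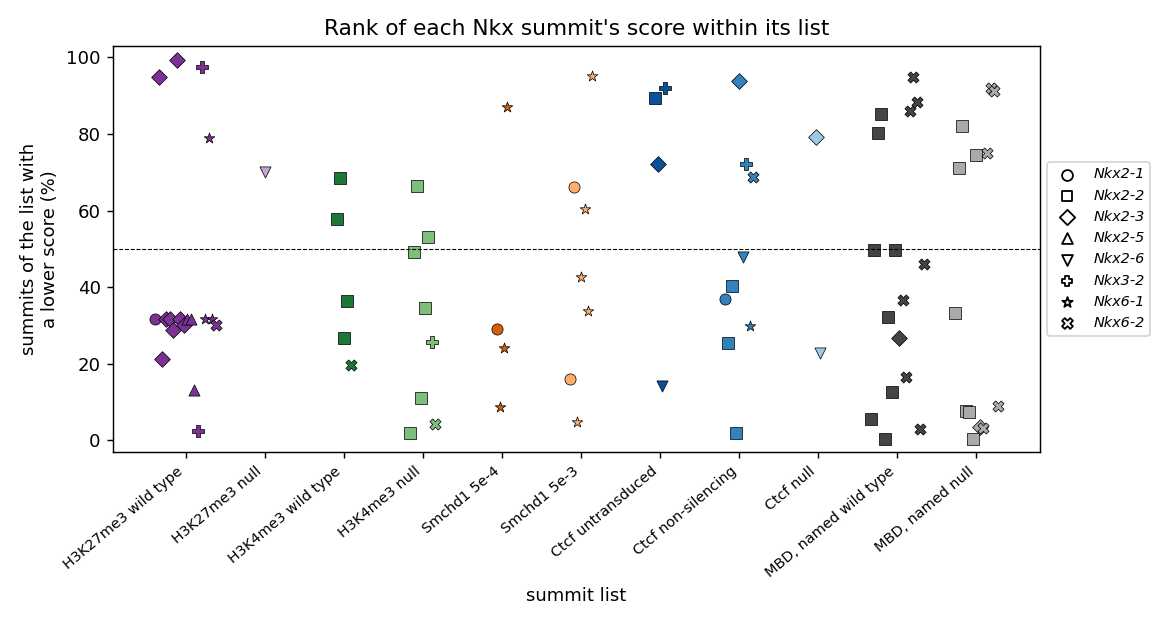
Percentage of a list's summits that score lower than each Nkx summit (y axis), by list (x axis), with 1 symbol per gene and a dashed line at the list's middle. The untransduced Ctcf summits of Nkx2-2 and Nkx3-2 lie at 89.4% and 92.1%, and the non-silencing summits nearest to them at 40.4% and 72.1%. Of the 18 wild-type H3K27me3 summits, 8 share the tied score at 31.7%.

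DNA methylation was listed at Nkx2-2, Nkx2-3 and Nkx6-2, the same 3 of 8 in the MBD list with the wild-type name (82.1% of all protein-coding genes) and in that with the null name (79.1%). The Nkx genes are short, with a median of 4.36 kb against 17.2 kb. Among the 8342 protein-coding genes within their range of length, 2738 to 18950 bp, the shares were 81.9% and 78.7%. The upper end of that range is Nkx2-2 alone, and the next longest member, Nkx2-5, has 6325 bp. Those genes are thus not closely matched in length, and the part of gene length was not tested. The other 5 genes had none within 10 kb in either list. Within 20 kb, however, 7 and 6 of the 8 had one. The share of all protein-coding genes at 20 kb was not computed, so these counts cannot be set against the shares above.

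At Nkx6-2 the list named for wild type held 7 summits and that named for null 5. The strongest, 896 and 908 bp beyond the gene's end, scored 68.6 and 52.2, above 94.8% and 92.1% of their lists, and another within the gene's end scored 54.5 and 51.0. The summits on that side all lay inside Inpp5a, a phosphatase gene whose end overlaps the end of Nkx6-2, so the methylation cannot be assigned to Nkx6-2. At Nkx2-2 the lists held 8 and 7. The strongest lay inside the gene 3458 and 3444 bp downstream of the start (48.5 and 38.4) and 5250 and 5256 bp downstream (42.2 and 29.2). No MBD summit fell between 3228 bp upstream and 2272 bp downstream of the start, where the highest H3K4me3 summit of each genotype lay. The marks were not separate throughout: a weak MBD summit (4.99) of the list with the wild-type name lay 52 bp from the null H3K4me3 summit of 24.2. At Nkx2-3 each list had 1 weak summit, 1536 bp (12.4) and 1470 bp (7.46) upstream. Where summits of both lists lay within 25 bp of each other, the list named for wild type had the higher score at 5 of 6 pairs at Nkx2-2. No direction between genotypes follows from this, since names and labels conflict and scores compare within a list only.

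**Figure D5:**
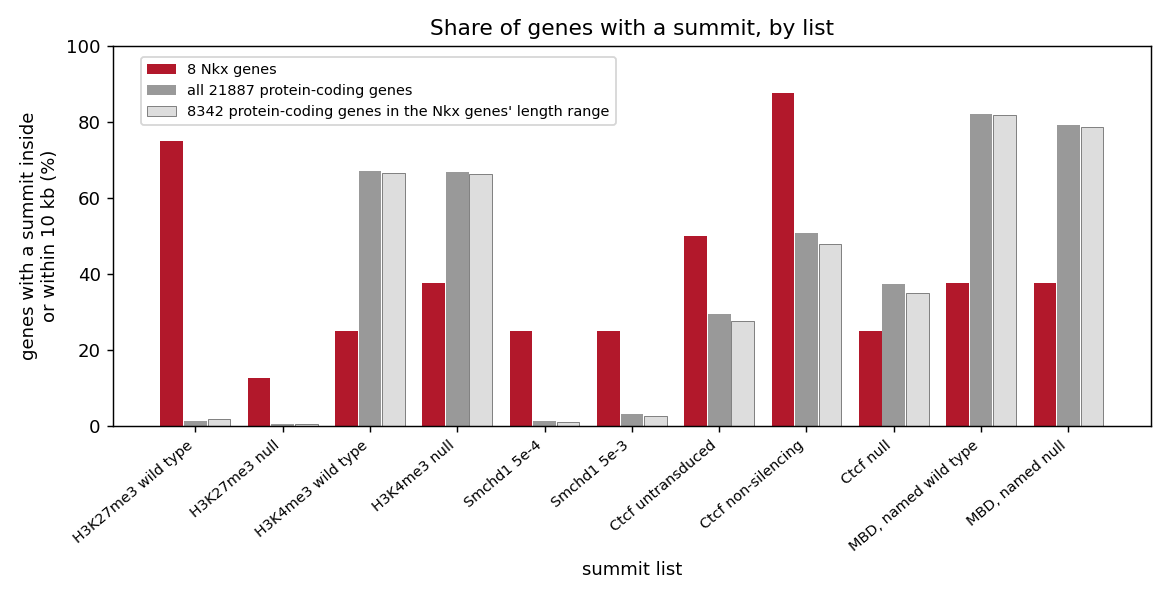
Percentage of genes with a summit inside or within 10 kb (y axis) in each of the 11 lists (x axis), for the 8 Nkx genes (red), all 21887 protein-coding genes (dark grey) and the 8342 in the Nkx genes' range of length (light grey). The red bars stand above the grey ones for both H3K27me3 lists (in null by 1 gene), Smchd1 and both wild-type Ctcf lists. They stand below them for H3K4me3, null Ctcf and MBD.

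Other Nkx genes had fewer H3K27me3 summits. The 8 members were chosen with earlier results of these data known, so the choice itself can produce this contrast, which is a description only. Of Nkx1-1, Nkx1-2, Nkx2-4, Nkx2-9 and Nkx6-3, only Nkx1-1 had wild-type H3K27me3 (4.51, inside the gene) and none had null H3K27me3. Nkx1-1 was also the only one of these with Smchd1 (8.32, 4287 bp upstream of its start). Its Ctcf site, 9025 and 9030 bp upstream, was listed in non-silencing (6.45) and null (14.6) but not in untransduced cells, unlike those of Nkx2-2 and Nkx3-2. H3K4me3 was listed at Nkx1-2 and Nkx6-3 in both genotypes, with top wild-type scores of 11.5 and 40.4, the last inside the neighbouring gene Ank1. Nkx2-4 and Nkx2-9, the neighbours of Nkx2-2 and Nkx2-1, had no summit of a histone mark, Smchd1 or Ctcf within 10 kb.

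Genes that act with the Nkx factors were also counted. For comparison, 1.24% of all protein-coding genes had wild-type and 0.32% null H3K27me3. H3K4me3 lay near 67.1% and 66.8% of them. In wild type and null it lay near 9 and 9 of 12 ventral forebrain genes and 5 and 5 of 9 axial skeleton factors. It lay near 4 and 3 of 11 heart and pharyngeal factors and 3 and 3 of 10 pancreas and gut factors. These last lists thus had a lower share than all genes, as the Nkx genes did. Of 18 ventral neural tube genes, 6 had wild-type H3K27me3 (Dbx1, Mnx1, Sim1, Pax7, Irx3 and Foxa2) and 0 null, and 14 and 12 had H3K4me3, led by Olig2 (57.6) in wild type and the hedgehog receptor gene Ptch1 (55.5) in null. Of 12 ventral forebrain genes, 7 had wild-type H3K27me3, including the Nkx2-1 target Lhx6, and 1 null, Lhx8 (3.48), which was listed in both. Of 11 heart and pharyngeal factors the numbers were 7 and 3, with Tbx20, Gata6 and Hand2 in both lists. They were 4 and 0 of 10 pancreas and gut factors, among the 4 the pancreas gene Pdx1, and 4 and 0 of 9 axial skeleton factors, among the 4 Pax1 and Pax9. H3K27me3 listed in null cells only, as at Nkx2-6, occurred at 0 genes of these 5 lists. Ctcf listed in untransduced and not null cells occurred at 0 of 18 ventral neural tube genes, at Gsx2 of the forebrain list at Pax9 and Meox2 of the skeleton list, and at 0 genes of the heart and pancreas lists. The reverse, null and not untransduced, occurred at 3, 5 and 2 genes of the neural tube, forebrain and skeleton lists and at 2 each of the heart and pancreas lists. The direction seen at Nkx2-2 and Nkx3-2 was thus the rarer one here, as it was over all protein-coding genes (6.3% against 14%). The null list is the longer, and the part of its length was not tested. Smchd1 at 5e-4 lay near Isl1, Gata4, Cdx2 and Pax9, among others, in these lists.

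The genes over 100 kb away whose summit numbers over the 11 lists came closest to the Nkx mean, measured as Euclidean distance of log2(summits + 1), were Tlx1 (1.17), Foxi3 (1.198), Tlx2 (1.37), Lin28b (1.38) and Six3 (1.39). The median protein-coding gene lay at 3.02. The Nkx genes themselves lay between 1.62 (Nkx3-2) and 4.69 (Nkx2-2), and Nkx2-2 and Nkx6-1 (3.11) were farther from their mean than the median gene. Tlx1 had 2 wild-type and 0 null H3K27me3 summits, no H3K4me3, and Ctcf in both wild-type lists but not in null, as at Nkx3-2, but lacked the null H3K4me3 summit of that gene and had 1 MBD summit in each list.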

How the data were processed

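The authors' deposited files were lists of peak summits, 1 bp wide, made with MACS2 (version 2) on mm10 after base calling with CASAVA 1.4, per the submitters' processing notes. The aligner, by name or version, is not named in the sources used here. Per the labels, each list pools all libraries of its group, with null Smchd1 ChIP, Ctcf ChIP in cells with Ctcf shRNAs, or the whole cell extract as the control. The deposited score is a −log10 significance, from p-values or q-values, and the labels do not say which. What a control library holds, and the depth, therefore affect which summits were listed.

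Genes came from RefSeq on GRCm38.p6, which gives gene ends but no exons, and promoter windows gave strand and start. Exons, introns and coverage tracks were not used here. Summits were counted inside genes or within 10 kb in Python 3.11.15 with numpy 2.4.6 and pandas 2.3.3, and plotted with matplotlib 3.10.9. Counts were checked against a brute-force search on made-up summits (300 of 300 genes equal). Summits on unplaced contigs were left out. No test was run, as there is 1 list per group, and no interval is given because read counts are unknown. The members and gene lists were chosen with earlier results of these data known. Genes were named by rule: all 8 members, the other Nkx genes, overlapping neighbours, up to 3 top genes per list and the 5 most similar genes. Further examples from the lists were chosen after their values were seen. Some genes that the rule names are not reported here. Windows of 2 and 20 kb, scores of at least 5, equal list lengths and other distances were tried as alternatives.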

Additional observations from a re-analysis of the deposited data

How the results depend on the processing

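Of 45 alternatives to 15 counts, 31 stayed within 1.5 times the value reported. With scores of at least 5, Nkx genes with H3K27me3 numbered 3 in wild type (Nkx2-3, Nkx3-2 and Nkx6-1) and 0 in null. With a window of 2 kb, 1 had Smchd1 (Nkx6-1, at 5e-4 and at 5e-3), 1 untransduced and 1 non-silencing Ctcf (Nkx2-2 in both), and 0 null Ctcf, while 0 were listed in 1 genotype for H3K4me3 and 1 for Ctcf in null against untransduced cells. With a window of 20 kb, 7 had MBD in the list with the wild-type name and 6 in the other. With equal numbers of H3K27me3 summits 3 were listed in 1 genotype, and 4 with ties kept, an alternative chosen after seeing the data. Within 5 kb, 4 of the Smchd1 summits had Ctcf. The smaller windows hold fewer summits by construction, and the higher scores and equal lengths likewise, while larger windows hold at least as many. Shares of all protein-coding genes were computed for 10 kb only, so these alternative counts have no share beside them. The 6 genes with wild-type H3K27me3 were the same at 2, 10 and 20 kb. No paired analysis was possible because each list pools its libraries, and for the same reason none could be left out in turn. The unknown depth limits every absent summit: not listed does not mean not marked.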

Other observations

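Between 10 and 20 kb from the Nkx genes, the lists held further summits that the counts above leave out. Nkx2-1 had another wild-type H3K27me3 summit, of score 5.60 and 11313 bp from the gene, higher than the one inside it. Nkx2-3 had 2 more, both of 5.60, at 11480 and 12773 bp from the gene. It also had another Ctcf site in all 3 cultures, 15138 to 15180 bp beyond its end, with scores of 13.6 in untransduced, 13.99 in non-silencing and 11.5 in null cells. Nkx2-6 had an MBD summit in each list, of 43.4 and 47.0, inside the pseudogene Rps2-ps5, and Nkx2-5 had one of 34.02 and 24.9, in each case with the value of the list with the wild-type name first.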
